A study of Homo sapiens with 8 samples.

Results

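The peaks described here lie on vault RNA, on pseudogenes of the 7SL RNA and on a pseudogene of the U6 small nuclear RNA, as found by miCLIP-sequencing of FLAG-tagged NOP2/NSUN1. They were chosen by the authors' annotation of each peak, taking every name that starts with vtRNA, RN7SL or RNU, and they number 9 of the 538 listed peaks, 3 of 251 in WT and 6 of 287 in C459A. Because a peak is listed only when its fold change of IP over size-matched input (SMInput) is at least 2 and its adjusted p is under 0.05, the enrichment itself selected these peaks, and their fold changes and p-values are given as a description.

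The libraries came from HEK293T cells, a human embryonic kidney line, collected 40 h after they were transfected to make the tagged enzyme, with no UV crosslinking. NOP2/NSUN1 is a nucleolar methyltransferase that makes 5-methylcytosine in ribosomal RNA. In the WT group the enzyme releases its RNA after methylation. In the C459A group, the cysteine needed for release is replaced by alanine, so that RNA caught during methylation stays bound by a covalent link. Each construct has 2 libraries of the FLAG IP and 2 of the SMInput, which is RNA taken from the same part of the membrane without the immunoprecipitation, 8 libraries in all. Every listed value joins both replicates of a construct, so it carries no replicate error, and no read counts come with it. The tagged protein came from a transfected plasmid in both groups, not from the cells' own gene.

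These RNAs are made by RNA polymerase III. Vault RNAs are short RNAs with promoter elements inside the gene, and part of their pool sits in the vault, a large cytoplasmic ribonucleoprotein particle. The 7SL RNA is the scaffold of the signal recognition particle, in which its Alu domain binds SRP9 and SRP14, its S domain binds SRP19, SRP54, SRP68 and SRP72, and a long helix joins both. U6 is the spliceosomal RNA that pairs with the 5′ splice site through its ACAGAGA box. Both 7SL and U6 have given rise to many scattered, mostly silent copies in the human genome, named RN7SL and RNU6 with a number and the letter P.

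The sequences under the U6 pseudogene and vault RNA peaks are shown first, because the results turn on how they differ from the functional RNA or from their relatives. They are from hg38, in the sense of the RNA. The U6 peaks of both lists lie on RNU6-826P, here over the WT peak (chr17:49036352-49036384, plus strand), beside the same bases of the functional gene RNU6-1 (chr15:67840013-67840045, minus), and the capital marks the base that differs.
RNU6-1: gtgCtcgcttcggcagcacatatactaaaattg
RNU6-826P: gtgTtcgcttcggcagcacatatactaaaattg

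The vault RNA peak on the chromosome (chr5:140718925-140719023, plus strand) is shown with the bases past the end of the annotated transcript in capitals. VTRNA1-1 (chr5:140711275-140711373, plus) and VTRNA1-3 (chr5:140726158-140726246, plus), the relatives from the same gene cluster, are shown in full, with the bases that differ from VTRNA1-2 in capitals.
VTRNA1-2: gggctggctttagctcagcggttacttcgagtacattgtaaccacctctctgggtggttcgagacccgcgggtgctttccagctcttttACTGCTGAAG
VTRNA1-1: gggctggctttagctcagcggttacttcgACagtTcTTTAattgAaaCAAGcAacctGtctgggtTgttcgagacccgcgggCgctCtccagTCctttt
VTRNA1-3: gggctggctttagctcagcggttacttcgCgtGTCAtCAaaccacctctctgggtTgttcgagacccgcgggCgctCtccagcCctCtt

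The vault RNA VTRNA1-2 was the most strongly supported RNA of the group, and both of its peaks were in the C459A list. The peak on its transcript covered bases 1 to 89, which is the whole RNA. Its log2 fold change was 4.85, and the authors' adjusted p, 1.28e-48, ranked 3 of 287. The peak on the chromosome started at the same base, and its log2 fold change reached 6.12 (the authors' adjusted p = 3.63e-15, rank 38 of 287). It was 99 bases wide and so ran 10 bases past the annotated 3′ end of the RNA. Both peaks describe 1 RNA on 2 references, the transcript and the genome, and their log2 fold changes differed by 1.27. The sources used here do not say how reads were shared between these references, so they cannot be counted as separate observations. The gene lies in an intron of a long non-coding RNA gene on the same strand (ENSG00000292256 in the annotation).

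The WT list held no vault RNA, and VTRNA1-1, VTRNA1-3 and VTRNA2-1 had none in either list. VTRNA1-2 was 86.5% identical to VTRNA1-3 and 80.8% identical to VTRNA1-1, and the first 29 bases of these RNAs are the same. VTRNA2-1, which lies apart from the others in sequence, was 68.3% identical over the part that could be aligned. Of the 72 windows of 18 bases in VTRNA1-2, which is the shortest read length kept upstream, 54 (75.0%) occur in none of these relatives. The shared windows are 13 for VTRNA1-1, 12 for VTRNA1-3 and 5 for VTRNA2-1, so most but not all stretches of the RNA tell VTRNA1-2 from them. The whole sequence of each vault RNA peak is at 1 place in hg38, also when 2 mismatches are allowed. With 24 cytosines in the RNA and a peak over its full length, the lists do not place the signal at a base. Whether WT and C459A differed on VTRNA1-2 was not tested, as the WT list keeps no value for it.

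**Figure D1:**
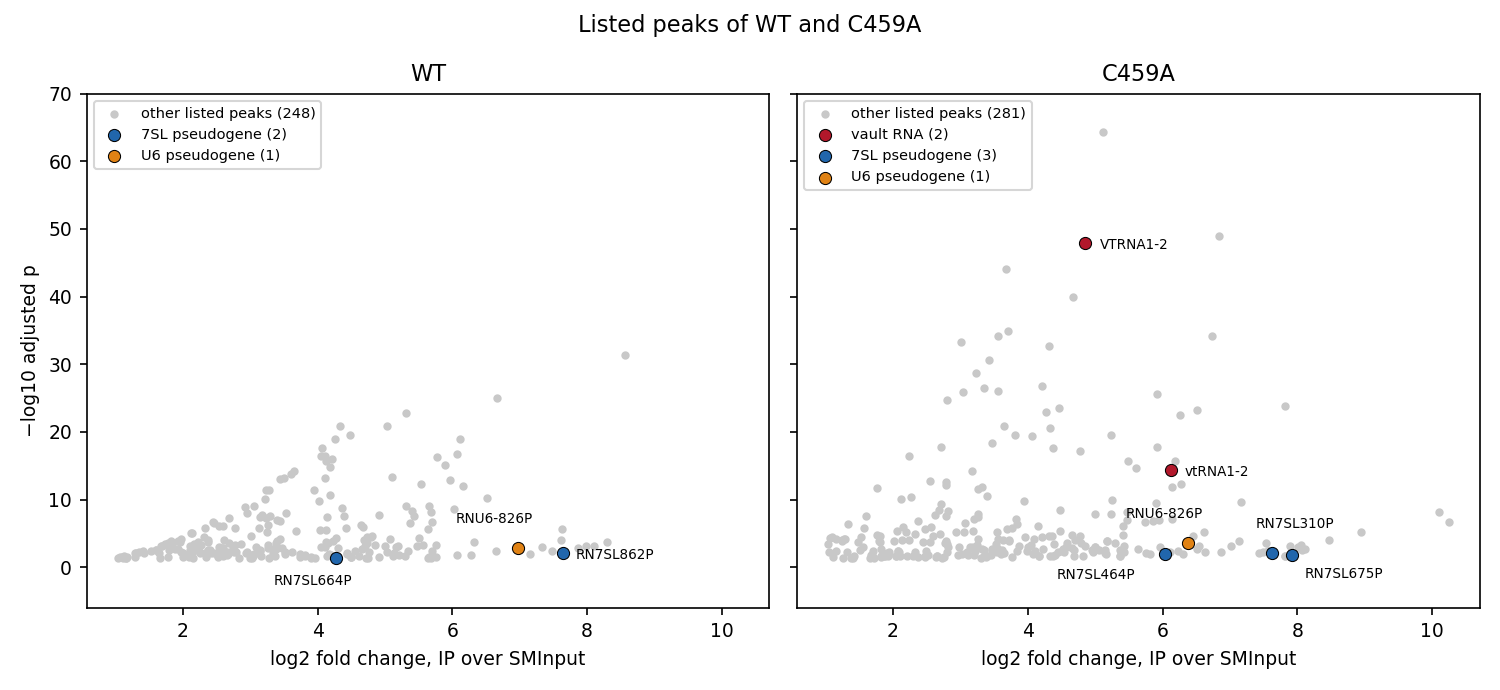
Log2 fold change of IP over SMInput (x axis) against −log10 of the authors' adjusted p (y axis) for every listed peak of WT (left) and C459A (right), with both replicates pooled in each point. The VTRNA1-2 transcript peak of C459A stands near the top at 4.85, whereas the 7SL and U6 pseudogene peaks sit low on the y axis, most of them at log2 fold changes above 6.

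On 7SL pseudogenes the lists hold 5 peaks, each on a different pseudogene, and none on the functional genes RN7SL1, RN7SL2 and RN7SL3. In WT, the log2 fold change of RN7SL862P was 7.64, rank 6 of the 251 peaks (the authors' adjusted p = 0.00803). That of RN7SL664P was 4.28, rank 85 (the authors' adjusted p = 0.0429). In C459A, RN7SL675P had the largest, 7.92, rank 9 of the 287 peaks (the authors' adjusted p = 0.0158). RN7SL310P followed at 7.63, rank 14 (the authors' adjusted p = 0.00716), and RN7SL464P at 6.04, rank 45 (the authors' adjusted p = 0.0116). Apart from that of RN7SL664P, these fold changes were high among the listed peaks. The p-values were weak, with ranks by p of 176 and 240 in WT and between 222 and 244 in C459A. Both values of RN7SL310P equalled those of a 20-base intergenic peak in C459A. With no read counts in the lists, how many reads lie behind such values is unknown. RN7SL664P was the member closest to the p threshold of 0.05, and peaks outside the thresholds were not analysed here. The annotation holds 680 RN7SL symbols, of which 2 (0.294%) were listed in WT and 3 (0.441%) in C459A.

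The 7SL pseudogene peaks of WT and C459A fell on the same piece of 7SL, although they lay on different pseudogenes. When each pseudogene was aligned with RN7SL1, which is 299 bases long, RN7SL862P and RN7SL464P covered bases 161 to 191, RN7SL310P bases 158 to 191 and RN7SL664P bases 157 to 191. The 4 peaks thus ended at 1 and the same base of 7SL and had 31 bases in common, those from 161 to 191. This stretch belongs to the S domain, and its 3′ end lies 5 bases before GGAAAC, which holds the tetraloop of helix 8 and starts at base 197 of RN7SL1. GGAAAC, searched anywhere on the sense strand of the transcripts, occurs in 130 of the 680 annotated RN7SL copies (19.1%). This count is not limited to the place of the tetraloop. The fifth peak, on RN7SL675P in C459A, covered bases 76 to 99, apart from the others, in the 5′ part of the RNA.

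**Figure D2:**
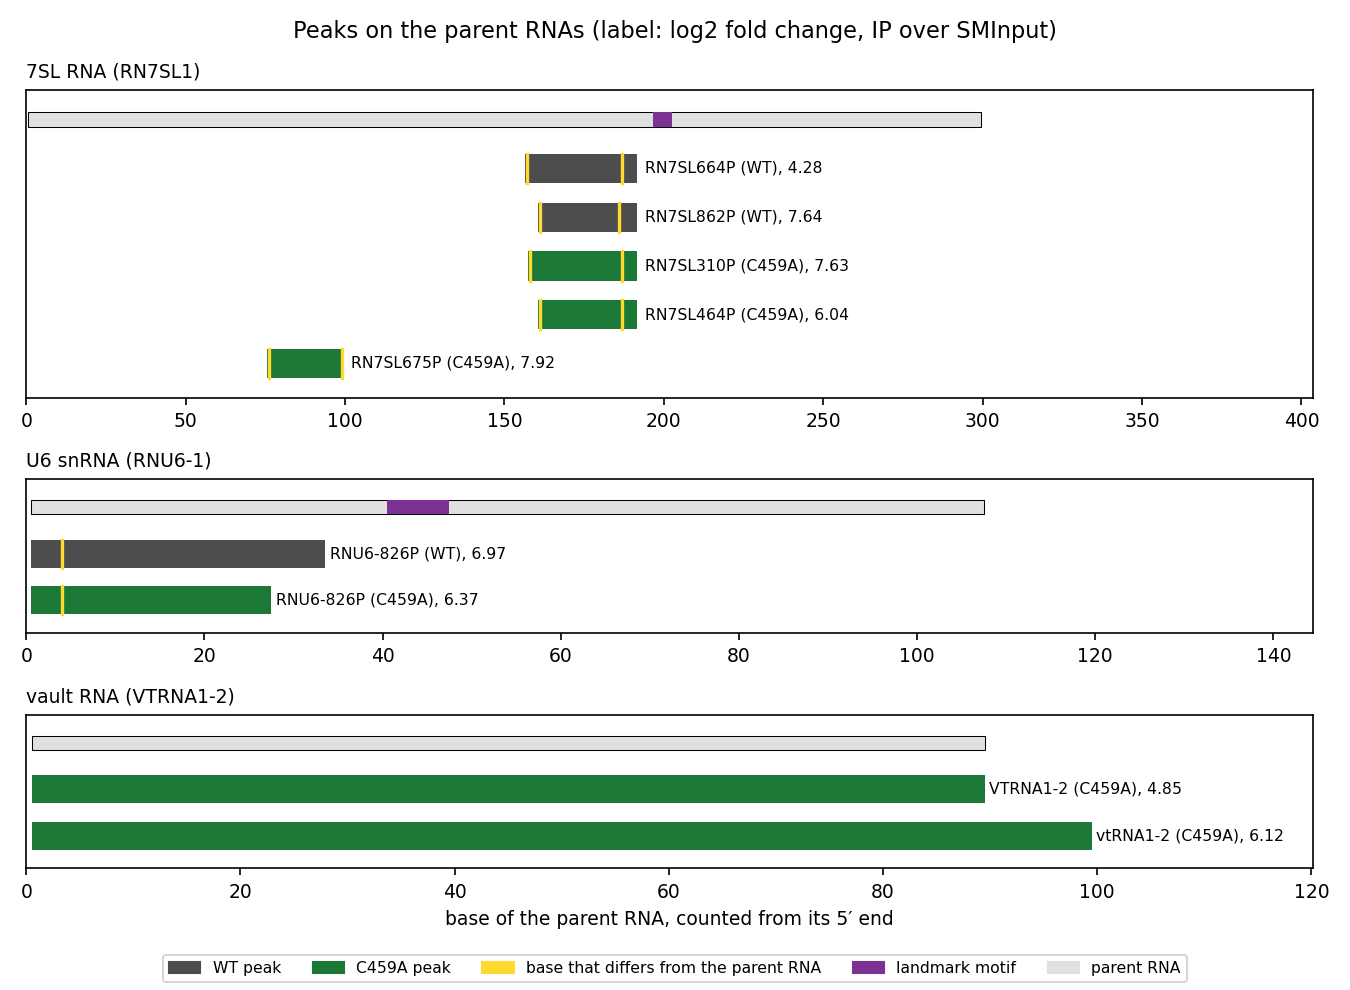
Each peak drawn on the RNA it derives from (x axis, base of RN7SL1, RNU6-1 or VTRNA1-2 from the 5′ end), with WT peaks in grey, C459A peaks in green, bases that differ from the functional RNA in yellow and the GGAAAC and ACAGAGA motifs in purple. Both WT peaks on 7SL pseudogenes, and 2 of the 3 in C459A, end together at base 191, and a yellow mark stands at the first base of every 7SL pseudogene peak.

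Within the peaks the pseudogenes were close to the functional RNA, and the few differences lay at fixed places. Every 7SL pseudogene peak differed from RN7SL1 at 2 bases with no gap. That makes 10 of 155 bases (6.45%), against 17.3% of the columns (260 of 1503) for the same 5 pseudogenes over their whole length. The whole-length share includes the peaks and counts gap columns as differences, whereas the peaks hold no gap. In all 5 peaks 1 of the differences was the first base of the peak. The second difference lay near the 3′ end of the peak in RN7SL862P, RN7SL464P, RN7SL310P and RN7SL664P, the last 3 of which shared it. In RN7SL675P the second difference was the last base of the peak. Between its differences each peak matched RN7SL1 without interruption, over 24 bases in RN7SL862P, 25 in RN7SL464P, 28 in RN7SL310P and 29 in RN7SL664P.

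The change at the first base was rare among 7SL copies and the second one common. Of the annotated RN7SL copies that could be aligned at these bases, the first-base change of RN7SL862P and RN7SL464P was present in 54 of 647 (8.35%), that of RN7SL310P in 66 of 640 (10.3%) and that of RN7SL664P in 22 of 638 (3.45%). By contrast, the second change of RN7SL862P was present in 318 of 632 copies (50.3%), and the one shared by RN7SL464P, RN7SL310P and RN7SL664P in 216 of 636 (34%). RN7SL675P was not included in this count. The unaltered stretch of RN7SL1 from base 161 to base 191 occurs in 7 of the 680 annotated copies, and none of these has a listed peak. At the other end, the pseudogenes kept on matching RN7SL1 for 4 bases past the peak in RN7SL862P, 5 in RN7SL664P and in RN7SL310P and 0 in RN7SL464P.

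The first base also mattered for how many places in the genome hold a peak's sequence. Over its whole length, every one of the 9 peak sequences is at 1 place in hg38, both strands searched. With the first base left out, a comparison added after the sequences had been seen, RN7SL862P matched 13 places, RN7SL464P 10, RN7SL310P 7, RN7SL664P 6 and RN7SL675P 3. When up to 2 mismatches were allowed, the 7SL pseudogene peaks matched between 27 places (RN7SL675P) and 79 places (RN7SL862P). Single bases of the reference thus tell these pseudogenes from other copies within the peaks. Whether the reads came from the pseudogenes or from 7SL RNA was not tested, since the lists hold no reads.

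**Figure D3:**
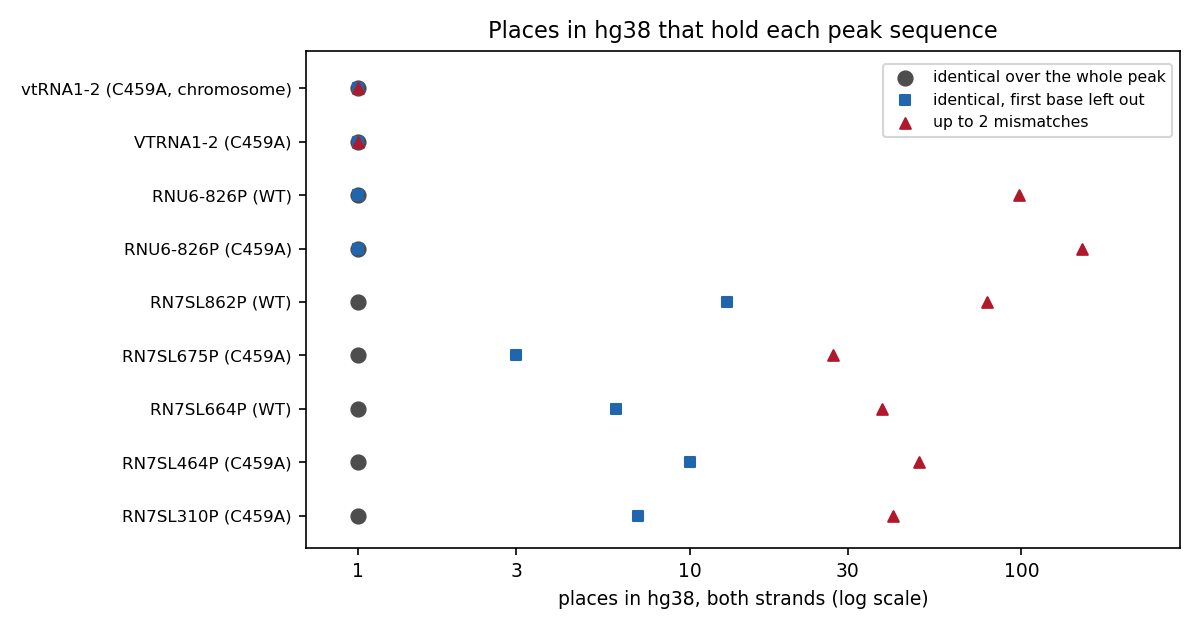
Number of places in hg38 (x axis, log scale, both strands) that hold the sequence of each peak (y axis) over its whole length, with its first base left out, and with up to 2 mismatches. All peaks are at 1 place when identical, the 5 peaks on 7SL pseudogenes move to between 3 and 13 places without the first base, and the vault RNA peaks stay at 1 throughout.

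The U6 pseudogene RNU6-826P was the only member with a peak in both lists. In WT its peak covered bases 1 to 33 at a log2 fold change of 6.97, with the authors' adjusted p at 0.00135. In C459A it covered bases 1 to 27 and reached 6.37 on the same scale (the authors' adjusted p = 0.000234). The 27 shared bases are 81.8% of the WT peak and the whole of the C459A peak, and the log2 fold change in C459A minus that in WT was -0.60, a difference that was not tested. Both peaks lay at the 5′ end of U6, where the functional RNA forms a short stem-loop, and ended 7 bases (WT) and 13 bases (C459A) before the ACAGAGA box, which is at bases 41 to 47 of RNU6-1. The sequence ACAGAGA, searched anywhere on the sense strand, occurs in 691 of the 1276 annotated RNU6 copies (54.2%). This count is not limited to the place of the box.

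RNU6-826P differs from RNU6-1 by 1 base within either peak, C4T (the RNU6-1 base, its position from the 5′ end, then the pseudogene base). Over its whole length it is 86.9% identical to RNU6-1, with gaps counted as differences. C4T was present in 68 of the 1155 RNU6 copies that could be aligned there (5.89%). In contrast to the 7SL pseudogene peaks, the difference was not at the first base. Leaving out the first base therefore kept C4T, and each U6 peak sequence was still at 1 place in hg38. No search without C4T was made. With up to 2 mismatches the WT peak matched 98 places and the C459A peak 152. The first 33 bases of RNU6-1 occur unaltered in 25 annotated copies, and its first 27 bases in 27. None of RNU6-1, RNU6-2, RNU6-7, RNU6-8 and RNU6-9, the functional U6 genes, had a listed peak.

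Of the pseudogenes, 3 lie in introns of protein-coding genes. RNU6-826P is on the same strand as its host IGF2BP1, an RNA-binding protein gene, whereas RN7SL862P in RAB31, a gene of a vesicle transport GTPase, and RN7SL464P in MARK1, a kinase gene, lie on the opposite strand. RN7SL664P, RN7SL310P and RN7SL675P overlap no other annotated gene at the peak. The peaks share only short uninterrupted stretches with the other RNAs compared, a set that did not include nuclear tRNAs. Against 876 rRNA, mitochondrial RNA, small nucleolar RNA and similar sequences outside the vault, 7SL and U6 families, among them 3 copies of the 45S precursor, the longest shared stretch was between 9 and 12 bases, compared with 22 to 29 bases shared without interruption with the functional RNA for the pseudogene peaks.

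Few of these peaks had a counterpart at the same place in the other list. By at least 1 shared base on the same reference, a counterpart was found for 1 of the 3 WT peaks, against 82.5% of the whole WT list, and for 1 of the 6 C459A peaks, against 71.8% of that list. The same 1 and 1, both RNU6-826P, remained when 50% of both peaks had to be shared. When the peaks were instead placed on the functional RNA, 3 of 3 WT peaks and 3 of 6 C459A peaks had a counterpart. The others were the 2 vault RNA peaks and RN7SL675P. The whole lists were not counted under the 50% rule or under this placing, so these counts have no list share beside them. On the shared 7SL stretch the log2 fold changes were 7.64 and 4.28 in WT and 7.63 and 6.04 in C459A. Each value is from a different pseudogene, and a difference between the constructs was not tested. An adjusted p under 0.01 was reached by 2 of 3 WT peaks (74.9% of the list) and by 4 of 6 C459A peaks (80.1% of the list). Among these 4 are the 2 vault RNA peaks, which describe 1 RNA. A fold change of at least 4 was reached by all 3 WT peaks (86.5% of the list) and all 6 C459A peaks (85% of the list).

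The pseudogene peaks were among the narrowest of the lists. Their widths were 31 to 35 bases in WT, where the median of all peaks was 93 bases, and 24 to 34 bases in C459A, where it was 85. A width of at most 35 bases, a limit set after the widths were seen, was found in 15 of 251 WT peaks (5.98%) and 28 of 287 C459A peaks (9.76%). The 12 other WT peaks and 24 other C459A peaks of that width had median log2 fold changes of 5.01 and 6.38, above the medians of the whole lists, 3.44 and 3.63. Their adjusted p-values had medians of 0.0169 and 0.00636 in the authors' lists, and 5 of the 12 and 7 of the 24 overlapped a peak of the other list. High fold changes with weak p-values were thus also present in narrow peaks on other RNAs.

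**Figure D4:**
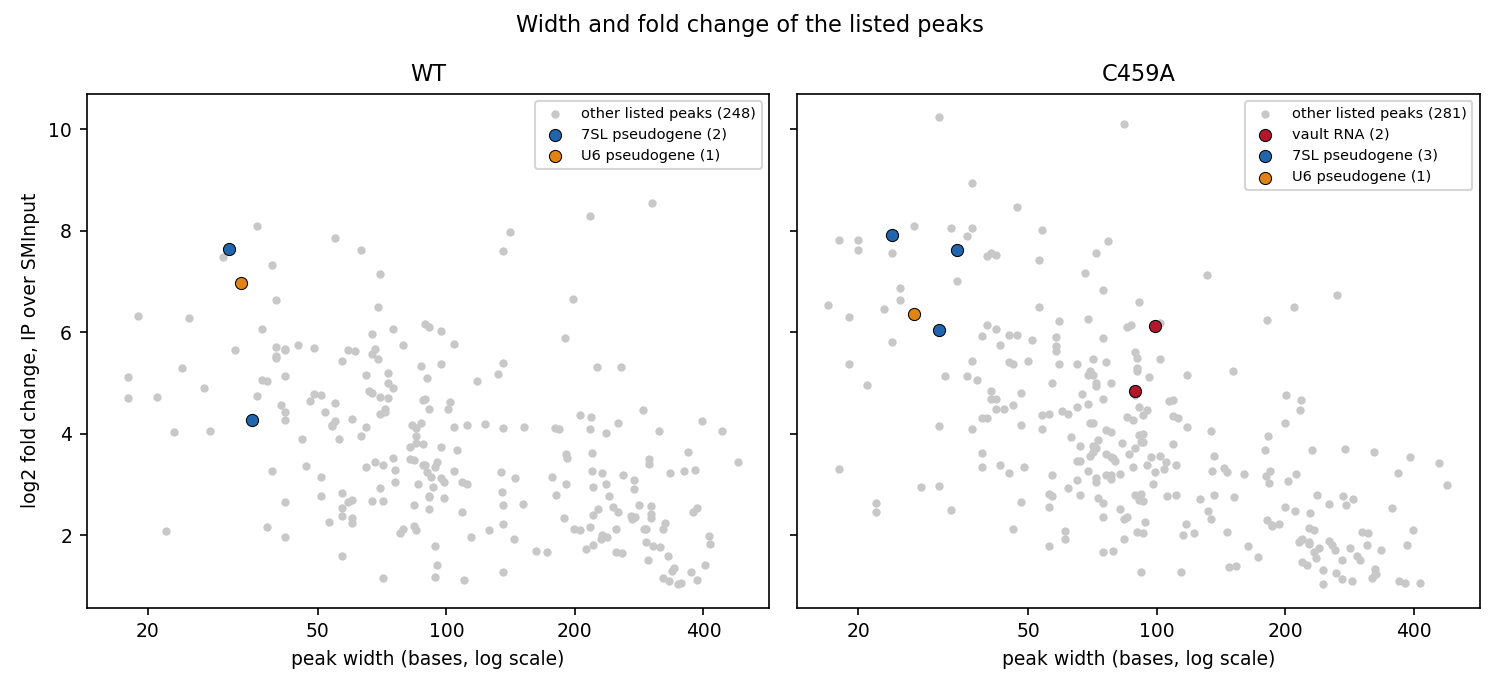
Peak width in bases (x axis, log scale) against log2 fold change of IP over SMInput (y axis) for every listed peak of WT (left) and C459A (right), with the vault RNA, 7SL and U6 pseudogene peaks in colour. The pseudogene peaks lie between 24 and 35 bases at the left, and the vault RNA peaks at 89 and 99 bases lie amid the bulk of the list.

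Other RNAs of RNA polymerase III had median peak widths above those of the 7SL and U6 pseudogenes and below those of the vault RNA peaks. Pseudogenes of 5S rRNA had 38 WT peaks with a median width of 76.5 bases and 52 C459A peaks with 70, and nuclear tRNAs had 26 WT peaks with 53.5 bases and 36 C459A peaks with 55. Peaks of at most 35 bases were also found among them in C459A, 5 of the 52 on 5S pseudogenes (9.62%) and 4 of the 36 on tRNAs (11.1%), whereas the WT list had 0 in both groups. The 5 on 5S pseudogenes, RNA5SP382, RNA5SP427, RNA5SP206, RNA5SP136 and RNA5SP56, were 24 to 34 bases wide with log2 fold changes from 6.64 (RNA5SP427) to 8.10 (RNA5SP136), and so overlapped the 7SL and U6 pseudogene peaks of C459A in width and fold change. The 4 on tRNAs were 28 to 33 bases wide. Their log2 fold changes, from 2.50 (tRNA-Pro-AGG-1-1) to 5.15 (tRNA-Pro-AGG-2-2), were below those of all 7SL and U6 pseudogene peaks of C459A. In WT the median log2 fold change was 4.53 for 5S pseudogenes and 2.92 for tRNAs, compared with 6.97 for the 3 members. The C459A medians were 5.42, 3.21 and 6.24 in the same order, the last over 6 peaks. None of 10 further short RNAs made mostly by RNA polymerase III, RN7SK, RMRP, RPPH1, RNY1, RNY3, RNY4, RNY5, BCYRN1, RNU6ATAC and SNAR-A1, was in either list. The same held for 9 other spliceosomal RNAs, from RNU1-1 and RNU2-1 to RNU4ATAC. An RNA that is not listed did not pass the thresholds, which does not show that it was unbound.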

How the data were processed

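Upstream, adapters were cut with cutadapt, fastp put the UMI into each read's name, and alignment was to hg38 plus repeat families. Peakachu compared IP with SMInput. Tool versions were not given in the sources used here. For each construct the authors deposited 1 list of enriched peaks, holding a log2 fold change (IP over SMInput) and the −log10 of its adjusted p-value. Both replicates enter each value, so no replicate error can be given, and without read counts the depth is unknown. The deposited −log10 values were turned back into adjusted p-values. These columns are the peak caller's output, and no other test was made.

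Peaks were taken by annotation, and the members and lists were chosen with earlier results of these data known. All 7 transcript references were found in GENCODE release 44, and their bases equal hg38. Pseudogene transcripts were aligned with RN7SL1 or RNU6-1 by global alignment with free ends (match 1, mismatch -1, gap opening -3, gap extension -0.5; biopython 1.88). The placing was tested on simulated copies of RN7SL1 with substitutions and a trimmed 5′ end, and 200 of 200 pieces were placed at the true base. These copies held no insertions or deletions, so the test does not cover placing errors from gaps in the real pseudogenes. Sequences of the 7SL peaks are not reported here. Differences are those of the reference sequences, not of the cells. The places of 45S come from RefSeq (GRCh38.p14). Named RNAs are every peak of the rule, their functional genes and fixed lists of other short RNAs. Alternatives were stricter thresholds, other overlaps, other alignments and mismatches. Computation used python 3.11.15, pysam 0.24.0, numpy 2.4.6 and matplotlib 3.10.9.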

Additional observations from a re-analysis of the deposited data

How the results depend on the processing

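No paired analysis was possible because the lists hold 1 value per peak for both replicates, and for the same reason no replicate could be left out. Placing the peaks on the functional RNA in place of their own reference raised the overlapping peaks from 1 to 3 in both lists. Different pseudogenes then share a place, and no such count was made over the whole lists. Without the vault RNA peaks the C459A median log2 fold change was 7.0 in place of 6.24. Peaks whose sequence is at 1 place in hg38 fell from 9 to 2 with up to 2 mismatches and to 4 without the first base. Local alignment of the peak alone moved the first base on the functional RNA by 1 in 5 of 7 pseudogene peaks, as it drops a differing end base. RN7SL2 or RNU6-2 as the functional RNA moved 0 of the 7. Leaving out gaps could not change the identity of a peak, since no peak aligned with a gap. Identities and differences over the whole length of an RNA count gaps as differences and were not computed without them.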
